A study of Homo sapiens
Mus musculus and Mus musculus and Homo sapiens with 16 samples.

Results

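The 10 genes described here encode the machinery with which a cell presents peptides on MHC class II molecules. They were taken by symbol from the human count table, as HLA-DRA, HLA-DRB1, HLA-DPA1, HLA-DPB1, HLA-DQA1, HLA-DQB1, HLA-DMA, HLA-DMB, CD74 and CIITA. All 10 were found among 58051 human genes, and 6 of them passed the filter on low counts, beside 12861 genes tested in all. In REC-1 cells CD74 was abundant and did not differ detectably between culture conditions, and CIITA was lower in both coculture fractions than in monoculture. The 6 genes of the antigen-binding chains had at most 126 counts in a library.

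REC-1 is a human mantle cell lymphoma (MCL) line, and MS-5 is a mouse bone marrow stromal line that was seeded 24 h before the lymphoma cells were added. RNA was sequenced after 24 h from REC-1 cells cultured alone (Sep), from REC-1 cells that stayed in suspension above MS-5 (Susp), from the REC-1 cells that had attached to the stroma (Adh) and from MS-5 cells alone (MS5), with 4 libraries in each group. No gene was deleted or added and no drug was given in these groups, and each species is represented by 1 established line. The adhered cells were lysed together with the stroma, so an Adh library holds RNA of both species, which the authors separated by sequence. The B cell identity of the human reads was clear, since 7 of 7 B cell and MCL markers had counts and their summed level was 4801 to 6246 CPM, a count scaled to a common library size, over the 12 REC-1 libraries. Human stromal markers summed to at most 0.513 CPM and 2 T cell markers to 2.34 to 7.44 CPM. The 5 markers of other antigen-presenting cells summed to 47.3 to 77.3 CPM, of which CD1C, which some B cells also express, held 45.1 to 76.4 CPM, while LYZ, CD14, ITGAX and CSF1R were each at or under 1.67 CPM. Their part in the results was not tested. In bulk RNA, fewer cells that express a gene and less RNA per cell cannot be told apart.

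In the textbook account, an alpha and a beta chain pair into HLA-DR, HLA-DP or HLA-DQ in the endoplasmic reticulum, where the invariant chain CD74 fills the groove and directs the complex to endosomes. Cathepsins then trim CD74 to a short peptide, and HLA-DM (HLA-DMA with HLA-DMB) exchanges this for an antigen peptide. Transcription of these genes depends on CIITA, a coactivator without DNA-binding activity of its own, which is held at promoters by RFX, CREB and NF-Y on the X and Y boxes. B cells normally express class II constitutively, and its loss is a known feature of some lymphomas.

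Promoters of 3 members are printed as a description, and whether the boxes of a member relate to its counts was not tested. Each sequence is the 250 bases before the transcript start in the hg38 (GRCh38) genome, read 5′ to 3′ on the strand of the gene with GENCODE release 44 starts. The HLA-DRB1 window lies at chr6:32589849-32590098, the HLA-DMA window at chr6:32953098-32953347 and the CD74 window at chr5:150412911-150413160, all 3 on the minus strand. Capitals mark the Y box (ATTGG or CCAAT), the RFX site of the X box (GCAAC or GTTGC) and the core of the X2 box (TGACG or CGTCA), searched on both strands. No match overlapped another in these windows.
HLA-DRB1: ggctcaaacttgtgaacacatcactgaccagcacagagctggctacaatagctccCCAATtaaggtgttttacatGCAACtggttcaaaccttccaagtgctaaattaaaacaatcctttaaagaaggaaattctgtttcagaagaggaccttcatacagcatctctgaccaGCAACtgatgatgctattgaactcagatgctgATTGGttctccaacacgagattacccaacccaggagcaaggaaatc
HLA-DMA: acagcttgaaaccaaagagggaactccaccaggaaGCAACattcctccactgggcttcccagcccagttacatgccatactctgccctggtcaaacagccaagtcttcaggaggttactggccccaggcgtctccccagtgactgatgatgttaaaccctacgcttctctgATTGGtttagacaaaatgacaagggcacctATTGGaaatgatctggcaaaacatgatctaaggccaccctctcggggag
CD74: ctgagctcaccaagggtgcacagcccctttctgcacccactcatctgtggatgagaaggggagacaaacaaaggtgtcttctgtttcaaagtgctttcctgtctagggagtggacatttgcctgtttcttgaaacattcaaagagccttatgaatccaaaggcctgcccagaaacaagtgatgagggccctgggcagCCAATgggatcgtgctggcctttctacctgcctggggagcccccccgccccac

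The HLA-DRB1 window held GCAAC 78 bases and ATTGG 46 bases before the start, 32 bases apart, without an X2 core. The HLA-DMA and CD74 windows did not hold GCAAC followed by ATTGG at a spacing of 25 to 40 bases. That pattern, counted together with its reverse arrangement of CCAAT followed by GTTGC, was present in 0.539% of 20033 promoters of protein-coding genes. It was chosen after the member sequences had been seen. Single boxes are common, and the Y box was found in 34.3% of those promoters, the RFX site in 27.9% and the X2 core in 25.5%. All 3 together were found in 2.8%. The CD74 window held 1 Y box and the HLA-DMA window held 2 Y boxes and a distant RFX site. A match describes letters, and its absence from a window says nothing about binding.

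Human depth was 9325412 to 12597891 counts in Sep, 15000927 to 21467832 in Susp and 7758979 to 13241751 in Adh libraries. Mouse counts were 29495404 to 34615602 in Adh and 10097555 to 17397651 in MS5 libraries. Among human genes with 1 to 20 counts, 65.0% to 79.2% of the values in a library were even numbers, with the highest share in Adh replicate 3. Such low counts may not be independent molecules, and limits based on counting are then too narrow. A count of 0 allowed up to 0.145 to 0.385 CPM, taking 3 counts as the floor. One library, Susp replicate 2, stood apart in 2 pathway genes described below, and values without it are given beside the results it moved most.

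HLA-DRA, the alpha chain of HLA-DR, had the most counts of the chain genes. Its levels were 0.787, 3.18, 1.26 and 1.44 CPM in Sep replicates 1 to 4, 1.46, 3.57, 0.580 and 2.01 CPM in Susp and 3.91, 5.39, 16.2 and 2.57 CPM in Adh. The Adh libraries included the 3 highest values of all 12, but Adh replicate 4 lay below the highest Sep and Susp libraries, so the groups overlapped. Means were 1.66 ± 1.05 CPM (SD, n = 4) in Sep, 1.90 ± 1.25 CPM (SD, n = 4) in Susp and 7.01 ± 6.22 CPM (SD, n = 4) in Adh. The edgeR quasi-likelihood test over all tested genes gave a log2 fold change of 2.04 with an SE of 0.59 for Adh against Sep (Benjamini-Hochberg adjusted p = 0.0654). For Adh against Susp it was 1.87 with an SE of 0.56 (adjusted p = 0.114), and for Susp against Sep 0.17 with an SE of 0.61 (adjusted p = 0.90). None of these passed the threshold of an adjusted p of 0.05 with a 1.5-fold change. With the replicate number as a block, Adh against Sep passed, at 2.02 (adjusted p = 0.0452).

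The HLA-DRA values rested on few reads. The counts were 10, 38, 12 and 18 in Sep, 22, 58, 12 and 30 in Susp and 52, 56, 126 and 20 in Adh, and all 12 were even. Adh replicate 3, which had the fewest human counts of any library, held the highest value. Without it the log2 fold change of Adh against Sep was 1.26 (edgeR adjusted p = 0.236), and that of Adh against Susp was 1.08 (adjusted p = 0.358). Without Susp replicate 2, which enters the Adh against Sep contrast only through the filter and the shared estimate of spread, the log2 fold change of Adh against Sep was 2.05 (adjusted p = 0.0229) and passed. Adh against Susp then stood at 2.40 (adjusted p = 0.0614) and Susp against Sep at -0.35 (adjusted p = 0.898).

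**Figure D1:**
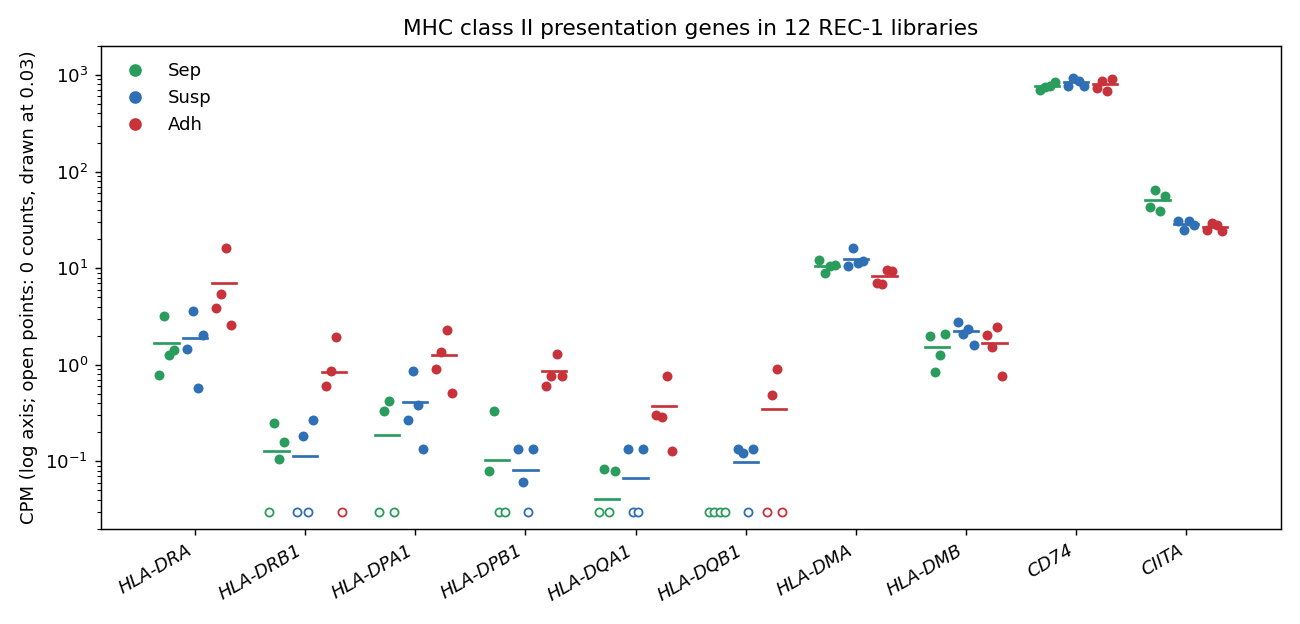
Level of each of the 10 class II genes in CPM (log axis) in the 12 REC-1 libraries, with 4 points per group for Sep (green), Susp (blue) and Adh (red), the group mean as a line and open points for libraries with 0 counts. CD74 lies between 688.0 and 939.8 CPM in every library, while the 5 chain genes other than HLA-DRA stay at or under 2.31 CPM.

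HLA-DPA1, the alpha chain of HLA-DP, was the other chain gene that passed the filter on low counts. It was at 0, 0.335, 0.418 and 0 CPM in Sep, 0.265, 0.861, 0.387 and 0.134 CPM in Susp and 0.902, 1.35, 2.31 and 0.513 CPM in Adh. Every Adh library was above every Sep library, while Adh and Susp overlapped. The log2 fold change was 2.78 with an SE of 0.80 for Adh against Sep (edgeR adjusted p = 0.0649) and 1.57 with an SE of 0.66 for Adh against Susp (adjusted p = 0.232). For Susp against Sep it was 1.21 with an SE of 0.86 (adjusted p = 0.465). With the replicate number as a block, Adh against Sep stood at 2.86 (adjusted p = 0.0213) and passed. Without Susp replicate 2 the 3 values, in the same order, were 2.78 (adjusted p = 0.0270), 2.18 (adjusted p = 0.137) and 0.60 (adjusted p = 0.873). HLA-DPA1 entered the test through the group in which it was high. The 4 libraries above the minimum of the filter were 3 Adh libraries and Susp replicate 2, and without the latter the filter required 3 libraries, all of which were Adh. All 12 HLA-DPA1 counts were even, with 18 as the highest.

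The other 4 chain genes were left out of the test by the filter, and their counts are given as a description. HLA-DPB1, the beta chain of HLA-DP, had 1, 4, 0 and 0 counts in Sep, 2, 1, 0 and 2 in Susp and 8, 8, 10 and 6 in Adh, so that the Adh libraries lay above all others. HLA-DRB1, the main beta chain of HLA-DR, had 0, 3, 1 and 2 counts in Sep, 0, 3, 0 and 4 in Susp and 8, 9, 15 and 0 in Adh. The 3 higher Adh libraries exceeded all 8 others, and the fourth was at 0. HLA-DQA1 and HLA-DQB1, the chains of HLA-DQ, had at most 7 counts in any library. HLA-DQB1 was at 0 in all 4 Sep libraries. HLA-DRB1 shares much of its sequence with HLA-DRB5, which had 0 to 11 counts, and only uniquely mapped reads were counted, so the split between the 2 is uncertain.

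The 6 chain genes together had 11, 50, 17 and 21 counts in Sep, 32, 78, 20 and 42 in Susp and 84, 95, 182 and 31 in Adh. In CPM this was 2.13 ± 1.43 (SD, n = 4), 2.68 ± 1.61 (SD, n = 4) and 10.7 ± 8.71 (SD, n = 4). Adh replicate 3 was the highest library for each of the 6 genes. HLA-DRA made up 58.9% to 90.9% of the chain counts in a library.

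In Adh libraries 18.3% to 28.2% of the counts were human, so CPM there depend on which counts form the denominator. Scaled to all human counts without TMM, HLA-DRA was at 3.93, 5.40, 16.2 and 2.53 CPM in Adh libraries. Scaled to the counts of both species it was at 1.11, 1.40, 2.97 and 0.511 CPM, a scaling chosen after the data had been seen. This scaling lowers every human gene of an Adh library by the same factor, so it says nothing about HLA-DRA in particular. The rescaled values cannot be set beside those of Sep and Susp, which were not rescaled. On the first scale HLA-DRA was at 0.794 to 3.25 CPM in Sep and 0.559 to 3.47 CPM in Susp libraries, for which mouse counts were not used here. Adh replicate 3 had both the lowest human share and the highest HLA-DRA value, while Adh replicate 4, with a human share of 20.2%, had the lowest HLA-DRA value of the 4. Whether reads from mouse transcripts contribute to these few counts was not tested. The mouse class II chain genes gave little signal in the mouse counts, as described below.

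**Figure D2:**
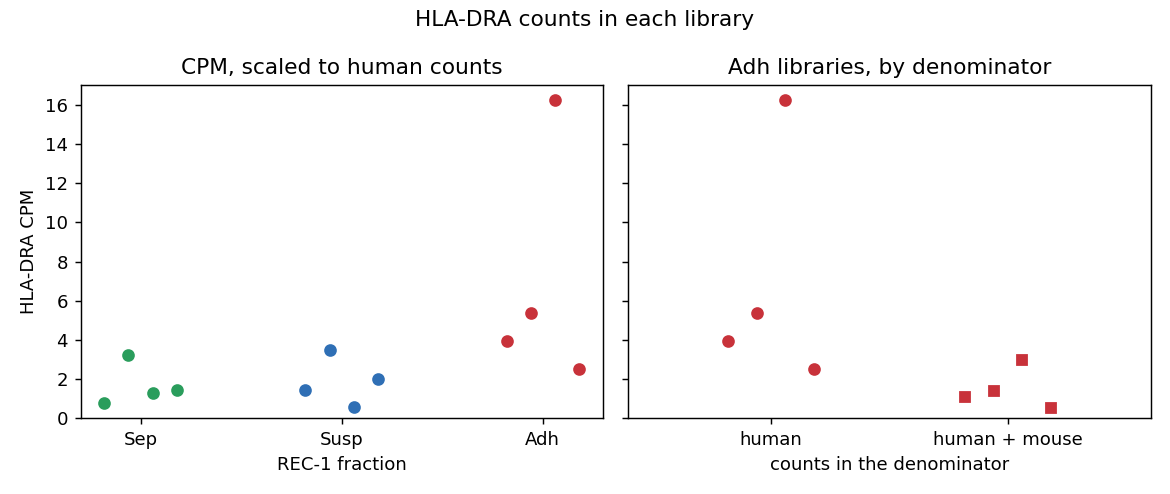
HLA-DRA level in CPM in each library, on the left scaled to human counts in Sep, Susp and Adh, and on the right for the 4 Adh libraries scaled to human counts (circles) and to human and mouse counts (squares). The Adh values of 2.53 to 16.2 become 0.511 to 2.97 with the larger denominator, which lowers every human gene of a library alike.

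HLA-DMA and HLA-DMB form HLA-DM, which loads peptides onto the class II groove. HLA-DMA was at 12.3, 8.87, 10.5 and 10.7 CPM in Sep, 10.4, 16.1, 11.3 and 11.8 CPM in Susp and 7.07, 6.93, 9.64 and 9.37 CPM in Adh. Each Adh library was below each Susp library, while Adh and Sep overlapped. The log2 fold change of HLA-DMA was -0.60 with an SE of 0.18 for Adh against Susp (edgeR adjusted p = 0.108), -0.37 with an SE of 0.18 for Adh against Sep (adjusted p = 0.259) and 0.23 with an SE of 0.17 for Susp against Sep (adjusted p = 0.486). Susp replicate 2 was the highest library, and without it the first of these was -0.44 (adjusted p = 0.178) and the last 0.069 (adjusted p = 0.927).

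HLA-DMB averaged 1.53 ± 0.590 CPM (SD, n = 4) in Sep, 2.21 ± 0.494 CPM (SD, n = 4) in Susp and 1.70 ± 0.718 CPM (SD, n = 4) in Adh, and the groups overlapped in all 3 comparisons. Its log2 fold changes were 0.52 with an SE of 0.36 for Susp against Sep (edgeR adjusted p = 0.454), 0.14 for Adh against Sep and -0.37 for Adh against Susp. HLA-DMA shares 8.53% of its exon bases with 2 overlapping genes and HLA-DMB 9.49% with 1. The libraries do not mark strand, so reads there cannot be assigned to 1 gene.

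CD74, the invariant chain, was the most highly expressed of the 10. It was at 691.3, 744.3, 772.7 and 851.3 CPM in Sep, 771.7, 939.8, 864.5 and 778.2 CPM in Susp and 740.5, 868.1, 688.0 and 915.1 CPM in Adh. The groups overlapped throughout. Its log2 fold changes were 0.13 for Susp against Sep, 0.07 for Adh against Sep and -0.06 for Adh against Susp, each with an SE of 0.10, and the edgeR adjusted p-values were 0.497, 0.746 and 0.762. Per kilobase of exon, CD74 stood at 169 ± 14.8 RPKM (SD, n = 4) in Sep, 185 ± 17.6 RPKM (SD, n = 4) in Susp and 177 ± 23.5 RPKM (SD, n = 4) in Adh. HLA-DRA stood at 1.34, 1.53 and 5.64 RPKM on the same scale. The length-corrected level of CD74 was therefore 64.3 to 241 times that of HLA-DRA in Sep, 72.5 to 410 times in Susp and 11.7 to 98.0 times in Adh libraries. Only uniquely mapped reads were counted, and how many HLA-DRA reads this left out was not tested. The lengths are unions of all annotated exons, 4526 bases for CD74 and 1244 for HLA-DRA, so the ratio depends on which transcripts are expressed. HLA-DMA, at 4.20, 4.93 and 3.27 RPKM in the 3 groups, lay between the 2 in Sep and Susp.

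CIITA, on the plus strand of chromosome 16 from 10866222 to 10943021 (GRCh38), was the member with a called change. It was at 42.5, 64.2, 39.0 and 55.4 CPM in Sep, 30.6, 24.9, 30.7 and 28.0 CPM in Susp and 25.03, 29.4, 28.3 and 24.1 CPM in Adh. Each of the 8 coculture libraries was below each Sep library, and the Susp and Adh ranges overlapped. Means were 50.3 ± 11.6 CPM (SD, n = 4), 28.5 ± 2.74 CPM (SD, n = 4) and 26.7 ± 2.52 CPM (SD, n = 4). CIITA was 1.76-fold lower in Susp than in Sep cells, a log2 fold change of -0.82 with an SE of 0.14 (edgeR adjusted p = 0.00749). In Adh it was 1.89-fold lower than in Sep cells, a log2 fold change of -0.91 with an SE of 0.15 (adjusted p = 0.00177). Adh and Susp differed by a log2 fold change of -0.10 with an SE of 0.15 (adjusted p = 0.744). Both comparisons with monoculture use the same Sep libraries, so they are not independent of each other. The authors maintained lymphoma lines in another medium than cocultures, and their methods do not state the medium of the Sep cultures. Whether culture conditions other than the stroma contributed was not tested.

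The CIITA calls held in each of the 18 alternatives tried, with log2 fold changes of -0.92 to -0.68 for Susp against Sep and -1.01 to -0.77 for Adh against Sep. The highest adjusted p-values among them were 0.0305 and 0.0102. Without Susp replicate 2 the Susp against Sep value was -0.77 (edgeR adjusted p = 0.00980). CIITA shares 21.6% of its exon bases with DEXI and 2 other annotated genes, and fewer of its counts than of HLA-DRA were even, at 3 of 12.

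**Figure D3:**
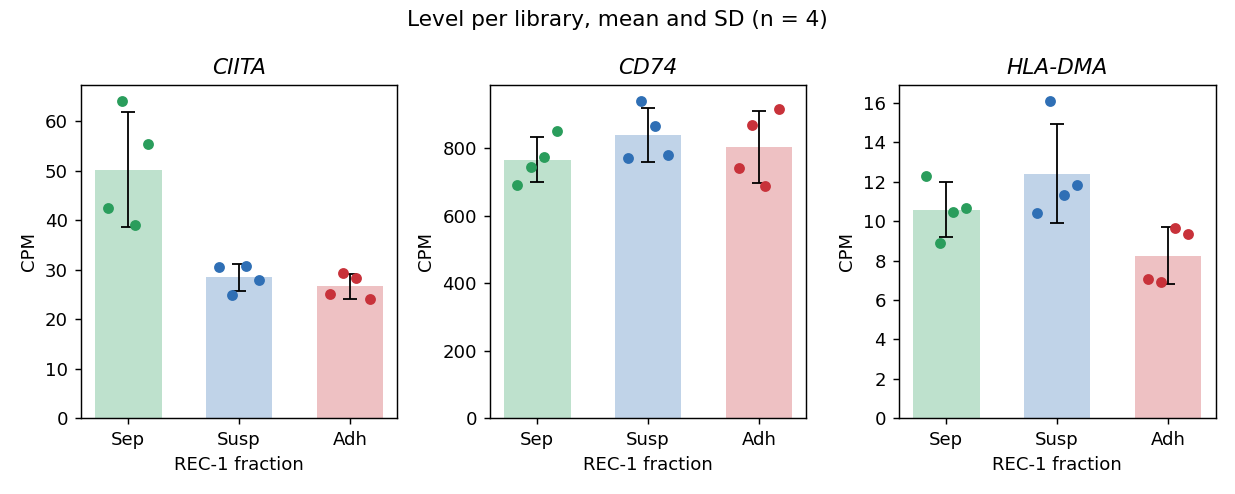
CIITA, CD74 and HLA-DMA levels in CPM on linear axes from 0, with bars for group means, error bars for the SD (n = 4) and a point for each library. All 8 Susp and Adh points of CIITA (24.1 to 30.7 CPM) lie below the 4 Sep points (39.0 to 64.2 CPM), while the CD74 groups overlap.

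Between Susp and Sep, 1 of the 6 tested members was called, CIITA, which was lower, against 0.731% of all tested genes called and 0.303% called lower. Between Adh and Sep, 1 of 6 was called, again CIITA, against 2.4% of all tested genes and 1.82% called lower. Between Adh and Susp, edgeR called 0 of 6, against 0.778% of all tested genes. At an unadjusted p under 0.05 this last count was 3, against 18% of all tested genes, and DESeq2 called 1, HLA-DMA, against 2.19% of all genes. Libraries of the 2 groups did not overlap for 1 member between Adh and Susp, 1 between Susp and Sep and 2 between Adh and Sep, against 11.4%, 11.3% and 15.7% of all tested genes. Between Adh and Sep, HLA-DRA and HLA-DPA1 were also called higher by DESeq2, with the replicate number as a block, without a low-count filter and without Susp replicate 2. Under these settings 1%, 0.7%, 0.346% and 0.978% of all genes were called higher. Where the filter was used, HLA-DPA1 entered mainly through Adh libraries, in which it was high, so its calls are a description only. HLA-DPA1 was 1 of the 2 members without overlap between Adh and Sep. It was also 1 of the 3 at an unadjusted p under 0.05 between Adh and Susp. Those counts, and the medians below that include it, are likewise a description. Between Adh and Susp, HLA-DRA and HLA-DPB1 were called higher without a low-count filter, against 0.159% of all genes. With 6 genes, 1 call is a statement on that gene and not on the list. The median log2 fold changes of the tested members were 0.20, 0.11 and -0.08 for Susp against Sep, Adh against Sep and Adh against Susp, and those of all tested genes were -0.0059, -0.0034 and -0.0051.

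**Figure D4:**
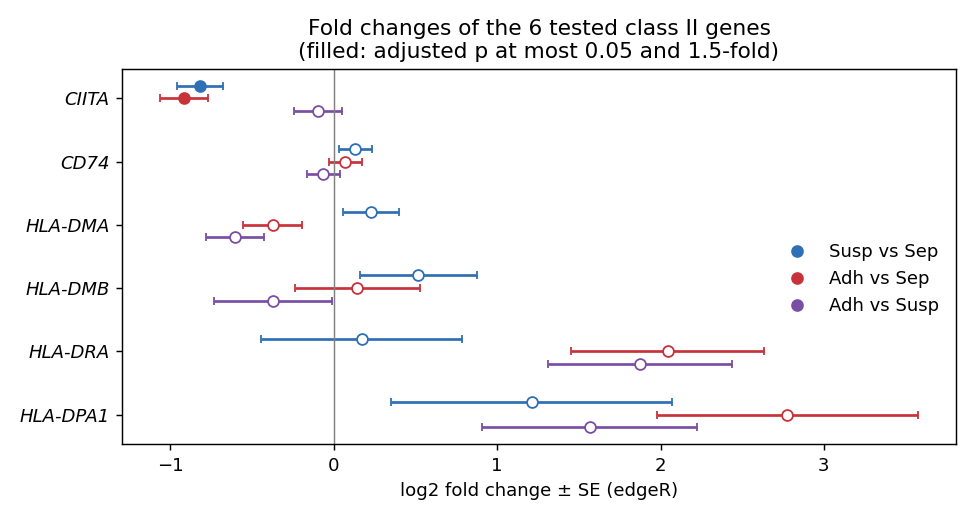
Log2 fold change with its SE (edgeR) of the 6 tested class II genes in the 3 comparisons, with filled points for called genes. CIITA is the gene with filled points, at -0.82 and -0.91 against Sep, and the intervals of HLA-DRA and HLA-DPA1 are the widest.

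The members did not vary as 1 block over the 12 libraries. The Pearson r of log2 CPM was 0.79 between HLA-DRA and HLA-DPA1. It was -0.30 between HLA-DRA and CIITA, -0.57 between HLA-DPA1 and CIITA and -0.15 between HLA-DRA and CD74. These are descriptions over 12 libraries that also differ by group and in depth. The mean of the 6 tested members mostly followed HLA-DRA (r = 0.91) and HLA-DPA1 (r = 0.88), and it ran with r = -0.37 against CIITA. Each of these genes is part of the mean, so their r with it is partly built in. Among 8463 genes with at least 10 CPM on average, those most like this mean were NTPCR (r = 0.87), ATG10 (r = 0.86), ZC3H12D (r = 0.85), HIST1H4I (r = 0.85) and SMDT1 (r = 0.84). They were picked as the highest of many, so their r are a description only.

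The other genes of the pathway were counted from a list of 39, of which 37 had a row in the count table and 31 were tested. HLA-DRB3 and HLA-DRB4 were not analysed here. Between Adh and Sep, 1 of 31 was called, CTSH, which was lower, against the 2.4% of all genes given above. Between Susp and Sep edgeR called 0 of 31, with 6 at an unadjusted p under 0.05, against 16.7% of all tested genes, and 0 by DESeq2, which called 1.33% of all genes. Between Adh and Susp it called 0 of 31, with 4 at an unadjusted p under 0.05, against the 18% given above, and 0 by DESeq2. The median log2 fold changes were 0.02, -0.08 and 0.02 in that order.

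Among the other class II genes, HLA-DOB, a chain of the HLA-DM inhibitor HLA-DO, passed the filter. It was at 1.57, 2.59, 1.99 and 1.44 CPM in Sep, 1.26, 2.58, 1.45 and 1.01 CPM in Susp and 1.05, 0.674, 0.257 and 0.642 CPM in Adh. The Adh libraries lay below the Sep libraries and overlapped with Susp. These Adh values rest on 14, 7, 2 and 5 counts, and Adh replicate 3 lay under its floor of 0.385 CPM. The log2 fold change of Adh against Sep was -1.44 with an SE of 0.43 (edgeR adjusted p = 0.0740), and without Susp replicate 2 it was -1.44 (adjusted p = 0.0320). HLA-DOB shares 30.4% of its exon bases with another gene. HLA-DOA, the partner chain, had at most 8 counts.

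The promoter complex was expressed in all groups, and edgeR called 0 of its 7 genes in any of the 3 comparisons, as did DESeq2. Of all tested genes, edgeR called 0.731% for Susp against Sep, 2.4% for Adh against Sep and 0.778% for Adh against Susp. DESeq2 called 1.33%, 4.1% and 2.19% in the same order. At an unadjusted p under 0.05 there were 3 for Susp against Sep, 1 for Adh against Sep and 1 for Adh against Susp, where the shares of all tested genes were 16.7%, 20.2% and 18%. RFXANK, a subunit of RFX, was at 39.9 to 46.9 CPM in Sep, 52.0 to 71.9 CPM in Susp and 46.9 to 61.1 CPM in Adh. All Susp libraries lay above all Sep libraries, with a log2 fold change of 0.46 and an SE of 0.12 (edgeR adjusted p = 0.0781), and for Adh against Sep it was 0.30 (adjusted p = 0.172). RFXANK shares 23.3% of its exon bases with 2 other genes. RFXAP, another RFX subunit, had a log2 fold change of 0.29 for Adh against Sep (adjusted p = 0.250), with groups that did not overlap. CREB1, which binds the X2 box, had a log2 fold change of -0.35 for Susp against Sep (adjusted p = 0.300). Its level in Susp replicate 2 was 30.9 CPM against 58.8 to 62.7 CPM in the other Susp libraries, and without replicate 2 the log2 fold change was -0.17 (adjusted p = 0.502).

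Of the 13 genes listed for control of CIITA, 0 were called in any comparison by edgeR or by DESeq2. At the shares of all tested genes called, given above, 0 calls among 13 genes says little about them. The list includes IRF1, JAK1, JAK2, IFNGR1 and IFNGR2 of the interferon gamma route, the B cell factors PAX5, SPI1, IRF4, IRF8 and BCL6, the repressor PRDM1 (BLIMP-1) and the histone methyltransferase EZH2. Their log2 fold changes were between -0.34 and 0.37 for Susp against Sep and between -0.28 and 0.11 for Adh against Sep, the comparisons in which CIITA fell. At an unadjusted p under 0.05 there were 1 and 0 of them, and 0 for Adh against Susp, where the shares of all tested genes were 16.7%, 20.2% and 18%. PRDM1, which silences CIITA in plasma cells, was at 5.67 to 7.53 CPM in Sep, 4.92 to 8.93 CPM in Susp and 6.04 to 9.25 CPM in Adh. IRF4 did not overlap between Susp and Sep, at a log2 fold change of -0.29 with an SE of 0.11 (edgeR adjusted p = 0.204), and at -0.19 without Susp replicate 2 (adjusted p = 0.240).

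Of the endosomal proteins, CTSH, an aminopeptidase cathepsin, was at 17.6, 18.2, 18.4 and 20.02 CPM in Sep, 15.8, 23.8, 14.8 and 14.9 CPM in Susp and 13.4, 12.7, 10.9 and 11.5 CPM in Adh. The Adh libraries were below all 8 others. The log2 fold change of Adh against Sep was -0.61 with an SE of 0.16 (edgeR adjusted p = 0.0447), which passed narrowly, and the call was lost in 10 of the 12 analyses that left out a library. It was also lost with upper-quartile normalization (2.39% of all genes called) and after thinning (2.27%). For Adh against Susp it was -0.51 (adjusted p = 0.123), and -0.30 without Susp replicate 2 (adjusted p = 0.214), the highest Susp library. CTSZ, a carboxypeptidase cathepsin, was at 441 to 480 CPM in Sep, 595 to 788 CPM in Susp and 487 to 552 CPM in Adh. All Susp libraries lay above the rest, and the log2 fold change against Sep was 0.50 with an SE of 0.09 (adjusted p = 0.00940), a 1.42-fold difference that did not reach 1.5-fold. CTSZ shares 31.7% of its exon bases with NELFCD. Without a fold minimum 1.02% of all genes passed in that comparison.

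CTSS, the protease that cleaves CD74 in B cells, was at 127 to 148 CPM in all 12 libraries, with log2 fold changes of 0.07 for Susp against Sep (edgeR adjusted p = 0.654) and 0.08 for Adh against Sep (adjusted p = 0.579). CTSL, which does so in other cell types, had 0 counts in all 12 libraries. CTSB did not overlap between Adh and Sep, at a log2 fold change of -0.18 (adjusted p = 0.231). MIF, a ligand of CD74, had 1 to 15 counts per library in the human table, and 94.1% of its exon bases are shared with other genes, so this count says little about its level.

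**Figure D5:**
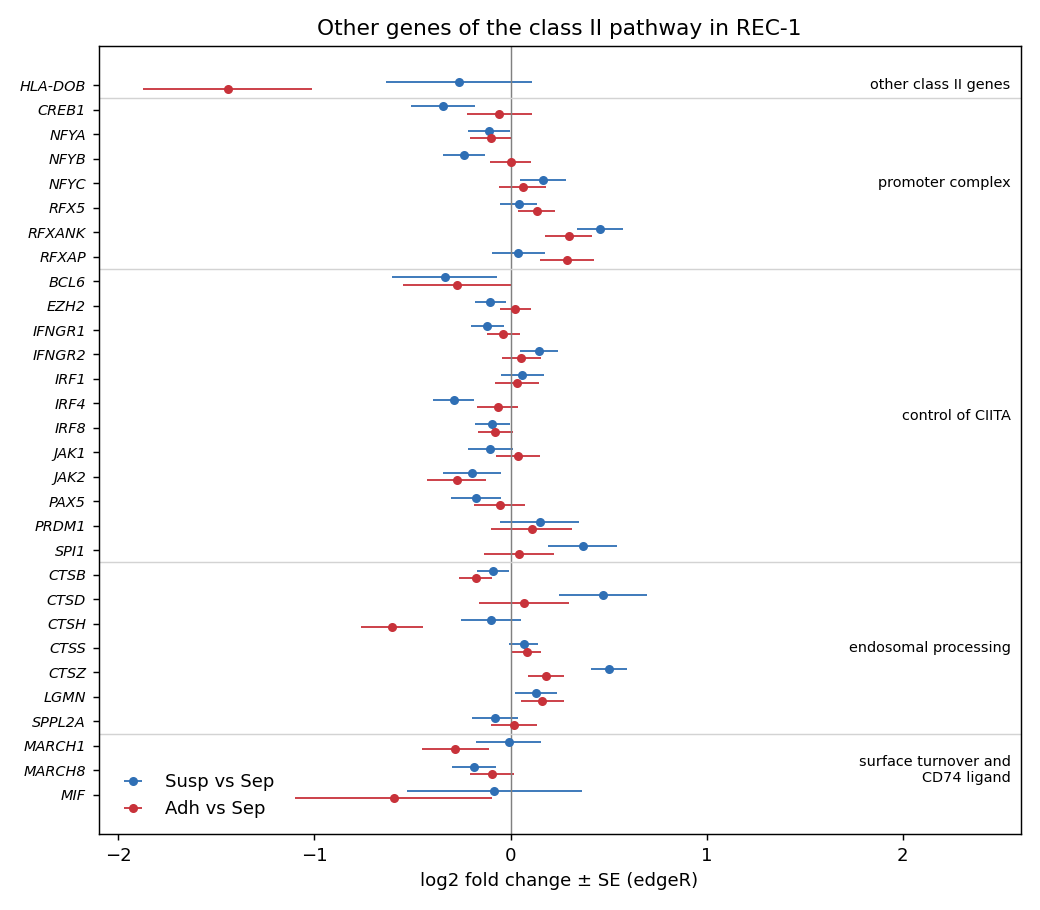
Log2 fold change with its SE (edgeR) against Sep of 30 of the 31 tested genes of the class II pathway outside the 10 members, in Susp (blue) and Adh (red), grouped by role. Most points lie within 0.5 of 0, and HLA-DOB at -1.44 and CTSH at -0.61 in Adh lie furthest to the left with MIF.

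The mouse counts were examined because the stroma shares the Adh libraries. The mouse class II chain genes H2-Aa and H2-Eb1 had 2 counts in 1 library each, and H2-Ab1 had 0 in all 8 libraries of Adh and MS5. Cd74 had 2 to 15 counts, and Ciita 0 to 2. H2-DMa, the mouse HLA-DMA, had 16, 23, 36 and 44 counts in MS5 and 99, 108, 81 and 100 in Adh libraries, which are deeper, and its log2 fold change was 0.45 with an SE of 0.28 (edgeR adjusted p = 0.582). Of the 18 mouse genes listed, 7 were tested and edgeR called 0, against 0.205% of 12201 genes. At an unadjusted p under 0.05 there was 1, Ifi30 with a log2 fold change of 0.20 (adjusted p = 0.399), against 11.3% of all tested genes, and DESeq2 called 0, against 0.311% of all genes.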

How the data were processed

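Gene-level read counts were used for 12 REC-1 libraries (4 Sep, 4 Susp, 4 Adh) and, for mouse genes, for the 4 Adh and 4 MS5 libraries. The deposited counts are raw whole numbers per gene. The authors separated human and mouse reads with Xenome, aligned them with STAR 2.5.1b, keeping uniquely mapped reads, and counted them with featureCounts (Subread 1.5.2) on Ensembl genes of GRCh38 and GRCm38. Another 20 columns, which belong to samples outside these groups, were not used. Depth per library is given with the results.

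Counts were tested with edgeR 4.0.16 in R 4.3.3 (filterByExpr, TMM and the older form of the quasi-likelihood test), with 1 model of the 12 REC-1 libraries and a separate model of the mouse counts. Calls required an adjusted p (Benjamini-Hochberg, over all tested genes) of at most 0.05 together with a fold change of at least 1.5. CPM use TMM-scaled library sizes. RPKM divide by the union of exons in GENCODE release 44, which is later than the annotation the authors counted on but of the same build. For correlations, 2 counts were added as a prior before log2 CPM were taken. The code was tested on simulated data with known changes.

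Alternatives were the replicate number as a block, DESeq2 1.42.0, upper-quartile normalization, no low-count filter, no fold-change minimum, mitochondrial genes removed, counts thinned to the smallest library, and each library left out in turn. Whether equal replicate numbers pair the libraries was checked by correlating their deviations from the group means. The r exceeded 0.1 for 3 of the 4 numbers in Adh against Sep. It did so for 1 of 4 in each of the other REC-1 comparisons and for 2 of 4 in mouse. The main test was planned without pairing, and the check did not settle that choice. For Adh against Sep most numbers leaned towards pairing, and there the block decides whether HLA-DRA and HLA-DPA1 are called. The sample names give the same number to 1 library of each group, but the labels do not say what a number marks, and p-values measure the spread between these libraries.

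Genes named are the 10 members, genes of the pathway list that were called or whose libraries did not overlap between 2 groups, and the 5 genes most like the mean of the tested members. HLA-DRB5, HLA-DOA, CTSS, CTSL, MIF, PRDM1, the listed regulators of CIITA and the mouse genes were named outside this rule, after their values were seen. The members and lists were chosen with earlier results of these data known. Some promoters and pathway genes are not reported here.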

Additional observations from a re-analysis of the deposited data

Results flagged for a closer look

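Libraries whose gap to the nearest of the other 3 in their group was too large a share of the range (Dixon criterion) are given here. Of 53 groups of member and pathway gene values examined, 3 held such a library, where chance alone marks about 5% of groups.

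HLA-DQB1 was at 0 CPM in Susp replicate 3, while the other Susp libraries were at 0.123 to 0.134 CPM, which is 2 counts each. CREB1 was at 30.9 CPM in Susp replicate 2, below 58.8 to 62.7 CPM in the other Susp libraries. CTSH was at 23.8 CPM in Susp replicate 2, above 14.8 to 15.8 CPM in the others. Susp replicate 2 was also the highest Susp library for HLA-DRA, HLA-DPA1, HLA-DMA, CD74, RFXANK and CTSZ and the lowest for CIITA.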

How the results depend on the processing

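CIITA was called lower against Sep in both coculture fractions under every alternative listed above. The calls of HLA-DRA and HLA-DPA1 between Adh and Sep depended on the setting. The count of members called there was 1, and it was 3 with the replicate number as a block, with DESeq2 and without a low-count filter, and ranged from 1 to 3 when libraries were left out, with 3 reached without Susp replicate 2. The replicate block changed no other call counted here. For HLA-DRA between Adh and Sep, the adjusted p was 0.0452 with the block, 0.0482 by DESeq2 and 3.33e-08 without the filter, and across all alternatives it ran up to 0.236. The value without the filter came with a smaller SE, 0.31 against 0.59 in the main test, and not with a larger change. The log2 fold changes were 2.03 and 2.04. For HLA-DPA1 the edgeR adjusted p was 0.0213 with the block, where the gene had entered the test mainly through Adh libraries. Between Adh and Susp, 0 members were called, 1 (HLA-DMA) by DESeq2 and 2 (HLA-DPB1 and HLA-DRA) without a low-count filter. Pathway genes called between Susp and Sep were 0, and 1 (CTSZ) without a fold minimum. Between Adh and Sep they were 1, but 2 (CTSH and HLA-DOB) by DESeq2, 0 with upper-quartile normalization and 0 after thinning, and ranged from 0 to 2 when libraries were left out. The causes were not tested.

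Changes of sign occurred for values near 0 when a library was left out. The log2 fold change of HLA-DRA for Susp against Sep ranged from -0.35 to 0.70, with -0.067 without Sep replicate 1. That of HLA-DMB for Adh against Sep ranged from -0.057 to 0.36, with -0.043 without Adh replicate 3. That of CD74 for Adh against Susp ranged from -0.13 to 0.011, with 0.00035 without Adh replicate 3. That of CREB1 for Adh against Sep ranged from -0.11 to 0.012, and that of RFXAP for Susp against Sep from -0.042 to 0.14, with -0.00087 without Sep replicate 2. HLA-DPA1 did not pass the filter after thinning and has no value there. Depth limits the chain genes, which had low counts.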
